A study of Mus musculus with 4 samples.

Results

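The 9 genes described here encode 4 galectins (Lgals1, Lgals3, Lgals8 and Lgals9) and 5 annexins (Anxa1, Anxa2, Anxa3, Anxa4 and Anxa5). They were taken by gene symbol from the 32285 genes of the count matrices, and each symbol was found once. The data are single-cell RNA counts of brain cells selected with CD11b beads from 4 mice, with 1 mouse and 1 library in each group. The groups are IL-6 wild type (+/+) after sham surgery, IL-6 wild type with cerebrovascular injury, IL-6 knockout (-/-) after sham surgery, and IL-6 knockout with the injury. The injury is made by pulsed ultrasound through a thinned skull after intravenous microspheres. All mice were 8 to 12 weeks old, and the tissue was a 4 mm punch taken on day 6. The labels name a mild and a severe form of the injury without saying which was used, and 1 label calls the sham mice uninjured. Because Il6 UMIs were present in the libraries labelled knockout (26.7 CPM after sham surgery and 21.9 CPM after injury, against 10.5 and 4.57 CPM in wild type), these are called knockout-labelled. The 3′ reads do not test the genotype, since the labels do not name the deleted part of Il6.

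Galectins are small lectins that bind β-galactoside sugars on glycoproteins. They are made without a signal peptide, act outside the cell and also gather on damaged endosomes and lysosomes. Annexins bind acidic phospholipids in the presence of calcium, and several of them take part in membrane repair, vesicle traffic and the clearance of dying cells. In the brain, galectin-3 is known as a marker of reactive microglia and of macrophages that enter from the blood, and annexin A3 has been used to mark resting microglia.

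In the GENCODE annotation of GRCm38 all 9 are protein-coding genes. The galectins lie at chr15:78926725-78930465 (Lgals1, plus strand), chr14:47367751-47386160 (Lgals3, plus), chr13:12439415-12464944 (Lgals8, minus) and chr11:78962974-78984946 (Lgals9, minus). The annexins lie at chr19:20373428-20390944 (Anxa1, minus), chr9:69453620-69491795 (Anxa2, plus), chr5:96793339-96845966 (Anxa3, plus), chr6:86736840-86793584 (Anxa4, minus) and chr3:36448923-36475894 (Anxa5, minus).

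Promoters are shown for Lgals3, Anxa2 and Anxa5, which were higher together in injured microglia, and for Lgals9, whose difference was smaller. Of the 9 genes, 7 have an entry in the RefSeq promoter table of GRCm38.p6. Each sequence runs from 250 bases before to 50 bases after the annotated start, 5′ to 3′ on the strand of the gene. Capitals mark matches to any of 5 short motifs searched on both strands, which did not overlap each other in these sequences. The motifs were TGANTCA (AP-1), TTCNNNGAA (STAT), CACGTG (E-box), GAGGAAGT (PU.1) and the ISRE (interferon-stimulated response element).
Lgals3, chr14:47373610-47373909, plus strand: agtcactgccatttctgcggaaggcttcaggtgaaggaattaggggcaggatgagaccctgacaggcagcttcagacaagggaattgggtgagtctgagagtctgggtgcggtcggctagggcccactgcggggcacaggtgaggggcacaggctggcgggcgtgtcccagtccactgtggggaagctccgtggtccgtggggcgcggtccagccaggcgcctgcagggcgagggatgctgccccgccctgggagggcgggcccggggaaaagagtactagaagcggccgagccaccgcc
Anxa2, chr9:69453433-69453732, plus strand: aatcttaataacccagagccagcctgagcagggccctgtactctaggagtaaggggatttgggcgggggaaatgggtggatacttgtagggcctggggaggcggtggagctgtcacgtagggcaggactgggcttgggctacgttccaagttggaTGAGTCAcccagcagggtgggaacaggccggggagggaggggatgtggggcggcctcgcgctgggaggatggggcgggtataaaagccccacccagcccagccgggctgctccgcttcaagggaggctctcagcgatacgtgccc
Anxa5, chr3:36475838-36476137, minus strand: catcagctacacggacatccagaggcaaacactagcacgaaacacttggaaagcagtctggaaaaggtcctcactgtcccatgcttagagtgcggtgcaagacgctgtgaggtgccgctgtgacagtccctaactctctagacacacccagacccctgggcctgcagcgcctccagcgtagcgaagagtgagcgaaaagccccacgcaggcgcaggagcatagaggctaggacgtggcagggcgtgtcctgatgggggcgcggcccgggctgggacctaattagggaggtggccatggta
Lgals9, chr11:78984875-78985174, minus strand: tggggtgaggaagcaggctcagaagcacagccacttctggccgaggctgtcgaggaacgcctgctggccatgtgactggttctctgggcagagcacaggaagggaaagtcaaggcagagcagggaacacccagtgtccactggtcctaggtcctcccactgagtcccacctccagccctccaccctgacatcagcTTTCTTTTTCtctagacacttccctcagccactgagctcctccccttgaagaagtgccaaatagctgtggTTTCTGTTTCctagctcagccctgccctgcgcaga
The Anxa2 promoter holds 1 AP-1 match, TGAGTCA, a motif found in 7.81% of the 32851 promoters of the table. The Lgals9 promoter holds 2 ISRE matches, TTTCTTTTTC and TTTCTGTTTC, read on the opposite strand, and 3.44% of promoters hold at least 1. The Lgals3 and Anxa5 windows hold no match to these motifs, of which the STAT motif is found in 8.3%, the E-box in 7.15% and the PU.1 motif in 3.2% of promoters.

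After filtering, 7866 cells were analysed, from 984 to 2924 a library, with median depths of 7754 to 10064 UMIs. Classes were gated on marker genes that include none of the 9 genes. They held 5527 microglia (722 to 2077 a library), 453 Lyz2/Ms4a7 macrophages (20, 370, 6 and 57 cells in wild-type sham, wild-type injured, knockout-labelled sham and knockout-labelled injured), 215 border macrophages (47 to 60) and 266 endothelial cells (23 to 125), a type CD11b does not mark. In this order of libraries every set of 4 values below is given. The wild-type sham and knockout-labelled sham libraries shared 23 cell barcodes, against 1 or 2 for any other pair. Leaving out the shared barcodes changed the direction of 1 test result among the 9 genes, that of Anxa1 in microglia, described below. Microglia carried no Ms4a7 UMI by definition, and 806 further cells with at least 3 microglia markers and Ms4a7, 646 of them from the injured wild-type library, stayed outside the gates. A level is the summed UMIs of a class in counts per 1e6 UMIs of that class (CPM), so fewer expressing cells and less RNA per cell cannot be told apart in it. Intervals are 95% and cover counting error alone, not the spread between mice. Those on UMIs treat each UMI as independent, so they leave out the clustering of UMIs in few cells.

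Galectin-3 was highest in Lyz2/Ms4a7 macrophages. Its level there was 231, 2413, 551 and 1544 CPM. Of the 32 UMIs behind the 231 CPM, 26 lay in 1 cell, and the 551 CPM rests on 14 UMIs in 1 cell. Both injured libraries were above both sham libraries. Other markers in this gate differed between them too. The 6 monocyte markers summed to 1688, 314, 3503 and 251 CPM. The 6 dendritic cell markers, of which 1 or 2 were detected in the sham libraries, summed to 4559, 464, 2598 and 1344 CPM. The 6 border macrophage markers summed to 967, 56.0, 1181 and 163 CPM. The part of such cells in the Lgals3 difference was not tested. In microglia Lgals3 was at 14.2, 136, 15.2 and 87.6 CPM, and in border macrophages at 9.75, 484, 19.2 and 47.9 CPM. Endothelial cells had 0 UMIs in both sham libraries (limits of 18.9 and 6.14 CPM from a floor of 3 counts), 456 CPM in the injured wild-type library and 10.04 CPM in the injured knockout-labelled one. Of the 241 UMIs behind the 456 CPM, 205 lay in 1 cell that also held 1596 Lyz2 UMIs, and over the 72 of 74 cells with under 10 Lyz2 UMIs the level was 19.1 CPM. Across libraries, Lyz2/Ms4a7 macrophages exceeded microglia by 4.19 ± 0.65 on the log2 scale (SE; edgeR quasi-likelihood test, adjusted p = 0.000183; higher in 3 of 3 libraries). They exceeded border macrophages by 4.05 ± 0.69 (adjusted p = 0.00184; 3 of 3 libraries). Border macrophages and endothelial cells did not pass the test against microglia (0.14 ± 0.64, adjusted p = 0.912, and -0.81 ± 0.68, adjusted p = 0.332). Endothelial cells were called lower without the injured wild-type library (-3.84, adjusted p = 4.37e-06), without a low-count filter (-0.87, adjusted p = 0.011), with stricter gates (-2.13, adjusted p = 0.00805), with cluster-defined classes (-3.70, adjusted p = 7.10e-05) and with Ms4a7 cells added to microglia (-1.81, adjusted p = 0.0214). Border macrophages were called lower with cluster-defined classes (-1.75, adjusted p = 0.029).

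**Figure D1:**
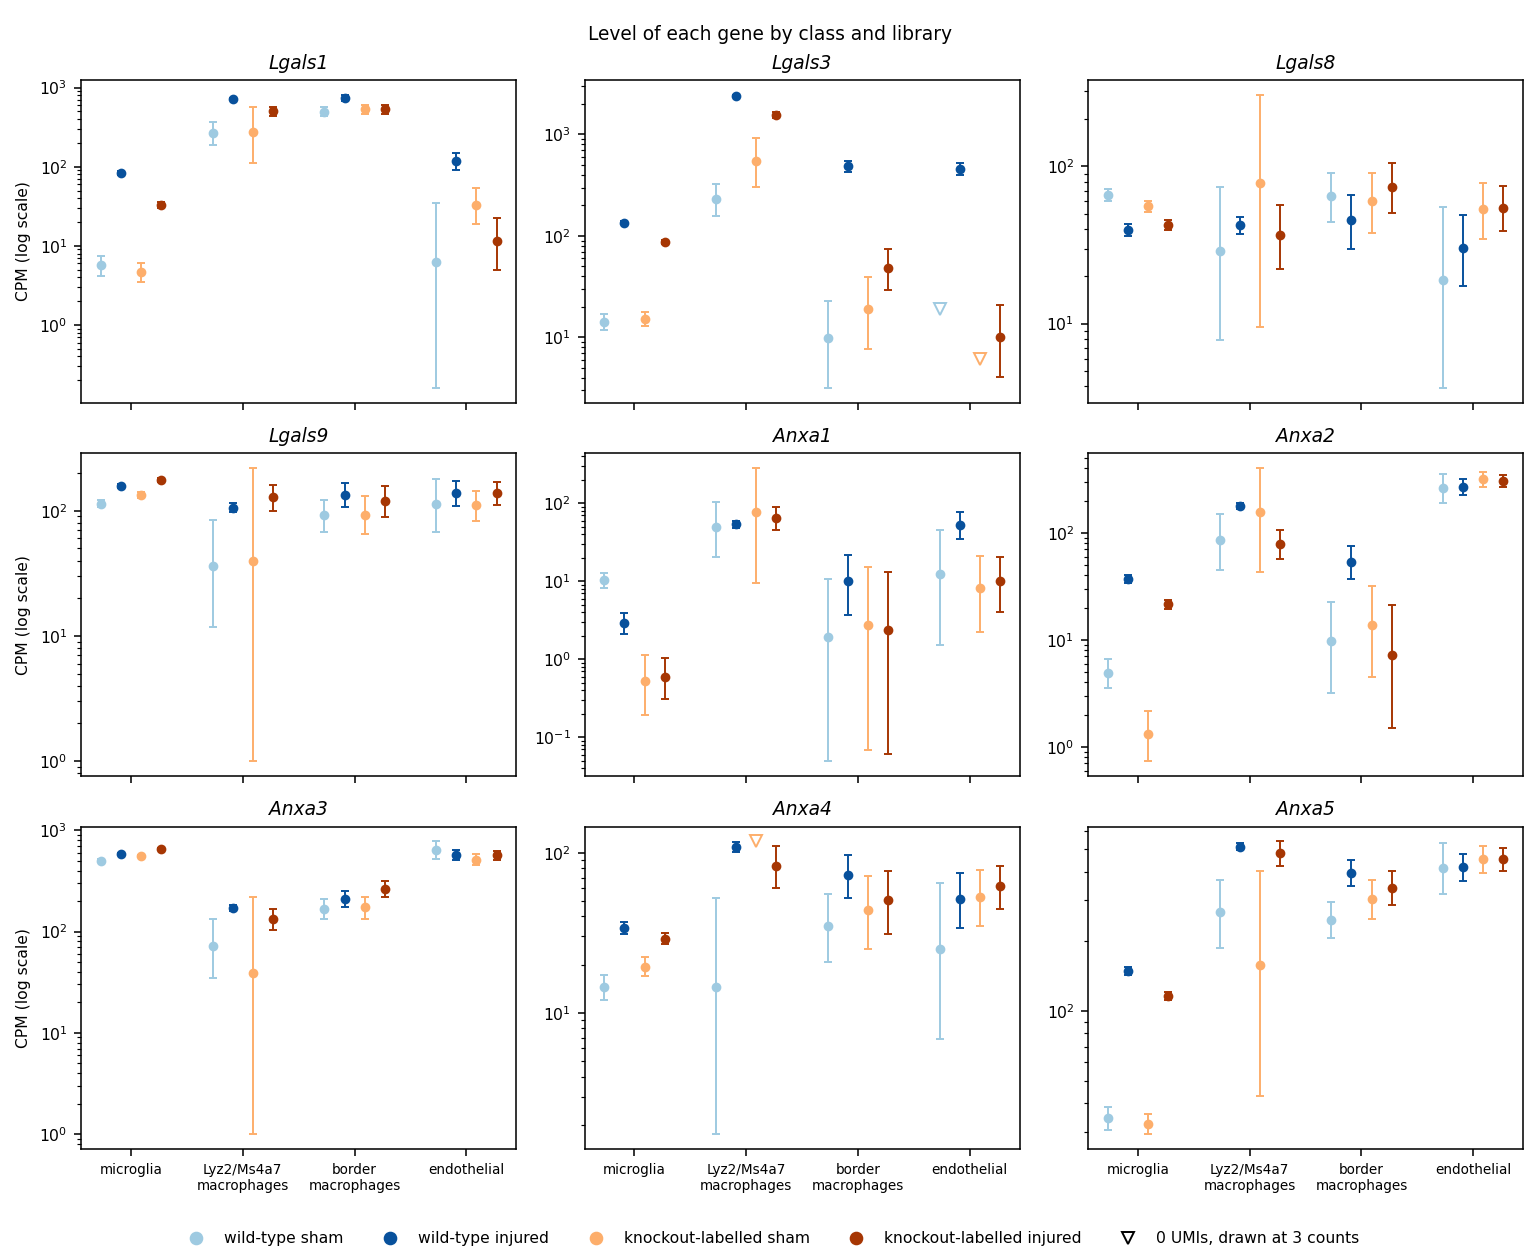
Level of each of the 9 genes (CPM, log axis) in the 4 gated classes, with 1 point for each library and exact Poisson 95% intervals; open triangles mark 0 UMIs, drawn at the level of 3 counts. Lgals3 reaches 2413 CPM in Lyz2/Ms4a7 macrophages, Lgals1 is high in both macrophage classes, Anxa2 is highest in endothelial cells, and Anxa3 lies near 500 to 660 CPM in microglia.

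Galectin-1, a lectin with roles in immune regulation and cell adhesion, was carried by both macrophage classes. Its level was 267, 711, 276 and 499 CPM in Lyz2/Ms4a7 macrophages and 497, 736, 529 and 535 CPM in border macrophages. Microglia had 5.64, 83.5, 4.63 and 32.9 CPM, below both macrophage classes in every library. The difference from microglia was 4.42 ± 0.58 for Lyz2/Ms4a7 macrophages (edgeR adjusted p = 3.62e-05; higher in 3 of 3 libraries) and 4.83 ± 0.58 for border macrophages (adjusted p = 1.60e-05; 4 of 4 libraries). The macrophage classes were not shown to differ from each other (-0.41 ± 0.58, adjusted p = 0.769). Endothelial cells had 6.3, 117, 32.7 and 11.5 CPM. The 117 CPM fell to 23.3 CPM over cells with under 10 Lyz2 UMIs, and the difference from microglia did not pass the test (0.29 ± 0.62, adjusted p = 0.717).

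Galectin-9, a ligand of the receptor TIM-3, and galectin-8, which recognises damaged endosomes, were present in all 4 classes. Lgals9 was at 114, 158, 133 and 176 CPM in microglia, 36.1, 106, 39.4 and 128 CPM in Lyz2/Ms4a7 macrophages (5 and 1 UMIs in the sham libraries), 91.6 to 134 CPM in border macrophages and 111 to 138 CPM in endothelial cells. Endothelial cells were called lower than microglia (-0.59 ± 0.18, edgeR adjusted p = 0.00953; lower in 4 of 4 libraries). In the wild-type sham library the levels were nearly equal, at 113.3 CPM (18 UMIs) in endothelial cells and 113.6 CPM in microglia. The tested difference includes TMM scaling, which the CPM levels do not. Border macrophages missed the threshold (-0.47 ± 0.17, adjusted p = 0.0686), which was passed under DESeq2 (-0.46, adjusted p = 0.0274), without a low-count filter (-0.57, adjusted p = 0.0447), with cluster-defined classes (-0.67, adjusted p = 0.00443) and with a minimum of 30 cells (-0.46, adjusted p = 0.0185). Lgals8 was at 66.04, 39.5, 55.8 and 42.4 CPM in microglia, 45.3 to 74.3 CPM in border macrophages and 18.9 to 54.5 CPM in endothelial cells, and no class contrast passed the test (adjusted p between 0.06 and 0.888). Endothelial cells minus microglia, at -0.56 ± 0.24, became a call for Lgals8 without a low-count filter, with stricter gates, with cluster-defined classes, with Ms4a7 cells added and without the injured knockout-labelled library (-0.55 to -0.90, adjusted p between 0.0183 and 0.0444).

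Annexin A2, which binds S100A10 at the cell membrane and on endothelial cells is a receptor for plasminogen activation, was highest in endothelial cells. Its level there was 264, 269, 315 and 306 CPM. Mural cell and fibroblast markers summed to 2267, 1003, 2824 and 590 CPM in the endothelial gate, and the part of such cells was not tested. Lyz2/Ms4a7 macrophages had 86.6, 177, 157 and 78.6 CPM, microglia 4.92, 37.3, 1.31 and 21.5 CPM, and border macrophages 9.75, 53.6, 13.7 and 7.19 CPM. In the wild-type sham Lyz2/Ms4a7 macrophages, 11 of the 12 Anxa2 UMIs lay in 1 cell. The 157 CPM of the knockout-labelled sham library rests on 4 UMIs in 1 cell. Endothelial cells lay above every other class in all libraries. Against microglia they differed by 4.33 ± 0.57 (edgeR adjusted p = 7.78e-06; 4 of 4 libraries) and Lyz2/Ms4a7 macrophages by 2.99 ± 0.60 (adjusted p = 0.0017; 3 of 3). Border macrophages did not pass the test against microglia (0.51 ± 0.75, adjusted p = 0.699). Lyz2/Ms4a7 macrophages minus border macrophages gave 2.48 ± 0.77 and missed the threshold (adjusted p = 0.0562), which DESeq2 passed (2.69, adjusted p = 0.00893), as did the fits without a low-count filter, with stricter gates, with cluster-defined classes and without the knockout-labelled sham library (2.51 to 4.39).

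Annexin A5, the protein used in apoptosis assays to bind exposed phosphatidylserine, was low in microglia and higher in the 3 other classes. Microglia had 34.5, 149, 32.6 and 116 CPM, Lyz2/Ms4a7 macrophages 267, 512, 157 and 479 CPM, border macrophages 248, 396, 304 and 340.4 CPM, and endothelial cells 416, 416, 452 and 452 CPM. The differences from microglia were 2.58 ± 0.35 for Lyz2/Ms4a7 macrophages (edgeR adjusted p = 5.55e-05), 2.06 ± 0.33 for border macrophages (adjusted p = 0.000275) and 2.27 ± 0.34 for endothelial cells (adjusted p = 2.74e-05). Each was higher in all libraries that entered.

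Annexin A3 went the other way. It was at 502, 588, 556 and 656 CPM in microglia, 72.1, 172, 39.4 and 134 CPM in Lyz2/Ms4a7 macrophages, 168, 210, 173 and 264 CPM in border macrophages, and 642, 568, 514 and 567 CPM in endothelial cells. Microglia and endothelial cells overlapped and lay above both macrophage classes. Lyz2/Ms4a7 macrophages were lower than microglia by -1.93 ± 0.24 (edgeR adjusted p = 2.50e-05; 3 of 3 libraries) and border macrophages by -1.58 ± 0.21 (adjusted p = 3.62e-05; 4 of 4). Endothelial cells did not pass the test (-0.34 ± 0.20, adjusted p = 0.153), but did without the wild-type sham library (-0.46, adjusted p = 0.0478) and with a minimum of 30 cells (-0.49, adjusted p = 0.0223).

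Annexin A1, an anti-inflammatory protein that acts through formyl peptide receptors, and annexin A4, known from epithelia, passed several class contrasts. Anxa1 was at 50.5, 53.7, 78.7 and 65.8 CPM in Lyz2/Ms4a7 macrophages (2 to 314 UMIs), against 10.3, 2.9, 0.524 and 0.592 CPM in microglia. Of the 7 Anxa1 UMIs in the wild-type sham Lyz2/Ms4a7 macrophages, 6 lay in 1 cell. The difference was 4.51 ± 0.60 from microglia (edgeR adjusted p = 4.08e-05) and 3.97 ± 0.85 from border macrophages (adjusted p = 0.00814). Border macrophages minus microglia was 0.54 ± 1.06 (adjusted p = 0.781), a call with stricter gates alone (3.41, adjusted p = 0.0389). Endothelial cells, at 12.6, 53.0, 8.19 and 10.04 CPM, exceeded microglia by 2.84 ± 0.69 (adjusted p = 0.00229), a call lost without the injured wild-type library (1.98, adjusted p = 0.0884) and with cluster-defined classes (1.15, adjusted p = 0.102). In the wild-type sham microglia, 70 of the 86 Anxa1 UMIs lay in 1 cell with 4164 UMIs of neutrophil markers, and neutrophil markers summed to 804 CPM there against 10.3 to 40.4 CPM in the other microglia. Anxa4 was at 14.5, 34.06, 19.5 and 29.1 CPM in microglia and was higher in Lyz2/Ms4a7 macrophages (1.81 ± 0.23, adjusted p = 2.70e-05), border macrophages (1.00 ± 0.23, adjusted p = 0.00446) and endothelial cells (0.64 ± 0.23, adjusted p = 0.025). The border call was lost with stricter gates (0.83, adjusted p = 0.0619), with cluster-defined classes (0.64, adjusted p = 0.115) and with Ms4a7 cells added to microglia (0.73, adjusted p = 0.0636). The endothelial call was lost in these and without the low-count filter (0.38 to 0.57), and without either knockout-labelled library (0.49 and 0.53). Lyz2/Ms4a7 minus border macrophages missed the threshold for Anxa4 (0.81 ± 0.26, adjusted p = 0.062), and passed it without a low-count filter, with stricter gates, without doublet removal, without the wild-type sham library and with a minimum of 30 cells (0.83 to 1.31). The Lyz2/Ms4a7 call for Anxa4 rests on the 2 injured libraries, since the wild-type sham level was 14.4 CPM from 2 UMIs.

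**Figure D2:**
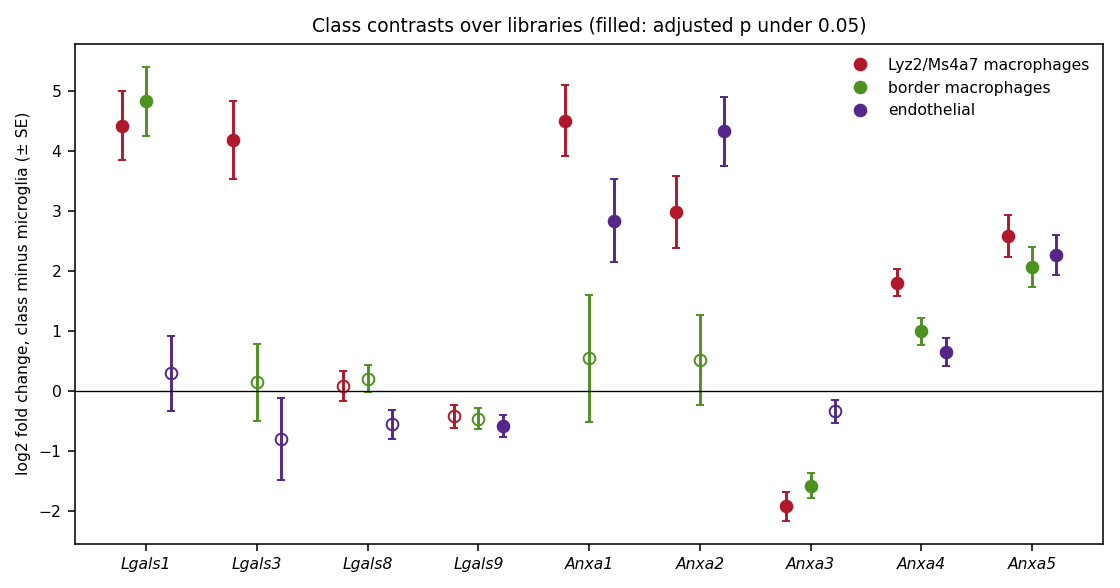
Log2 fold change of each gene between a class and microglia in the edgeR fit over the libraries, with bars of 1 SE; filled points passed an adjusted p of 0.05 and open points did not. Lyz2/Ms4a7 macrophages lie above microglia for Lgals1, Lgals3, Anxa1, Anxa2, Anxa4 and Anxa5 and below for Anxa3, and the Anxa2 point is highest in endothelial cells.

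In all, 6 of the 9 genes were called higher in Lyz2/Ms4a7 macrophages than in microglia, where 12.9% of the 8868 genes tested were higher, and 1 was called lower, where 12.5% were lower. In border macrophages 3 were higher (11.1% of all genes) and 1 lower (11%). In endothelial cells 4 were higher (29.3%) and 1 lower (28.5%), and between Lyz2/Ms4a7 and border macrophages 2 were higher (4.27%) and 0 lower (5.42%). The median log2 difference of the 9 genes was 2.58, 0.51, 0.29 and 0.51 in these contrasts, against -0.01, -0.04, 0.02 and 0.01 over all genes tested.

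After injury, microglia held more Lgals1, Lgals3, Anxa2 and Anxa5 in both genotype labels. From the levels above, Lgals1 was 14.8-fold higher in the injured than in the sham wild-type library (11.06 to 20.2) and 7.11-fold higher in the knockout-labelled pair (5.37 to 9.59). Lgals3 was 9.57-fold (7.94 to 11.6) and 5.76-fold (4.93 to 6.77) higher, Anxa2 7.57-fold (5.51 to 10.7) and 16.4-fold (9.82 to 29.5), and Anxa5 4.32-fold (3.82 to 4.91) and 3.56-fold (3.19 to 3.98). Of the sham Lgals3 UMIs in wild type, 92 of 118 lay in 3 cells. In the knockout-labelled sham library 144 of 174 lay in 4 cells, 93 of them in 1 cell. The wide interval of Anxa2 in the knockout-labelled pair comes from 15 UMIs in its sham library. Of the 8 genes that passed the filter on low values (all but Anxa1), these 4 were at least 2-fold higher on the log2(CPM + 10) scale in each label, where 2.84% of genes were higher in wild type and 2.44% in the knockout-labelled pair. No gene of the 9 was at least 2-fold lower, where 5.38% and 1.35% of genes were. Their median log2 ratio was 1.25 and 0.94, against -0.28 and -0.20 over all genes that passed.

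The remaining genes moved less. Anxa4 was 2.34-fold (1.92 to 2.88) and 1.49-fold (1.28 to 1.75) higher, Lgals9 1.39-fold (1.29 to 1.5) and 1.32-fold (1.24 to 1.40), and Anxa3 1.17-fold (1.13 to 1.22) and 1.18-fold (1.14 to 1.21). Lgals8 had ratios of 0.597 (0.531 to 0.672) and 0.759 (0.684 to 0.842), which on the log2(CPM + 10) scale are -0.62 and -0.33 beside the medians of -0.28 and -0.20 over all genes; with median-of-ratios scaling they were -0.22 and -0.045. That scaling moved the median of all genes to 0.15 and 0.10, and the share of higher among called genes from 34.6% to 87.8% in wild type, with 64.4% and 89.3% for the knockout-labelled pair. With both labels in 1 edgeR model, 7 of the 9 genes were called higher in injured microglia, where 23.6% of 12862 genes were higher, and Anxa1 was called lower, where 21.1% were lower. The log2 differences were 3.76 ± 0.18 for Lgals1 (adjusted p = 3.55e-94), 3.72 ± 0.20 for Anxa2 (adjusted p = 1.62e-72), 3.26 ± 0.17 for Lgals3 (adjusted p = 2.73e-80), 2.35 ± 0.16 for Anxa5 (adjusted p = 1.84e-47) and 1.25 ± 0.15 for Anxa4 (adjusted p = 3.41e-15). Lgals9 gave 0.82 ± 0.15 (adjusted p = 5.06e-07) and Anxa3 0.61 ± 0.14 (adjusted p = 5.33e-05), and Lgals8 did not pass (-0.19 ± 0.14, adjusted p = 0.279). The model includes TMM scaling, which the CPM ratios do not. The log2 CPM ratios in wild type and the knockout-labelled pair were 0.48 and 0.40 for Lgals9, 0.23 and 0.24 for Anxa3, and -0.74 and -0.40 for Lgals8. The model compares 2 injured with 2 sham mice and has 1 residual degree of freedom, so these SEs and p-values rest on a spread pooled over genes. For Lgals1 the log2 CPM ratios of the 2 labels were 3.89 and 2.83, and for Anxa2 2.92 and 4.03, further apart than the SEs. The same held for Lgals3, Lgals8, Anxa4 and Anxa5, but not for Lgals9 and Anxa3. The Anxa1 call (-0.95 ± 0.36, adjusted p = 0.0239) reversed to 1.31 (adjusted p = 0.0306) once cells with shared barcodes were left out.

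**Figure D3:**
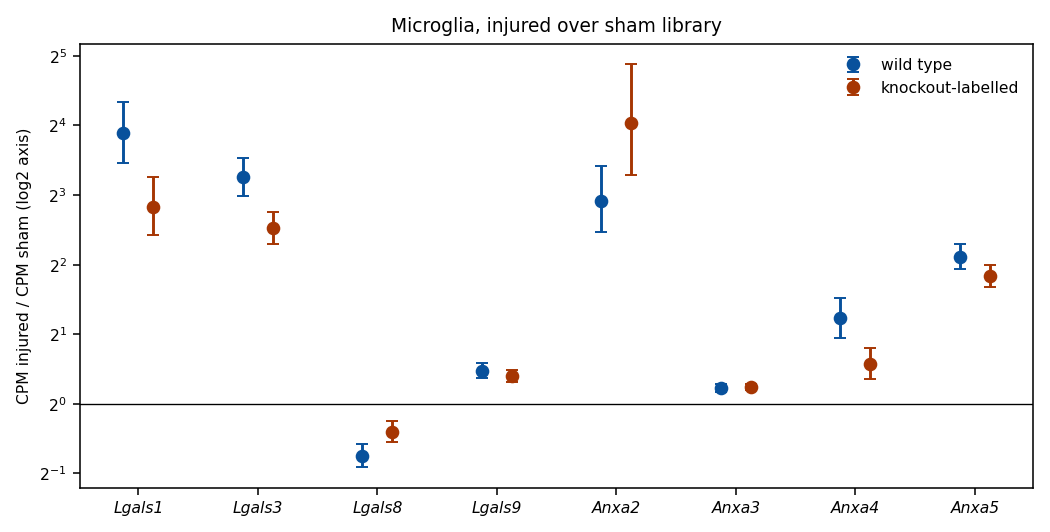
Ratio of the level in injured to that in sham microglia (log2 axis) for the 8 genes that passed the filter, in wild-type and knockout-labelled mice, with exact conditional binomial 95% intervals from 1 library a group. Lgals1, Lgals3, Anxa2 and Anxa5 lie above 3.5-fold in both labels, and Lgals9 and Anxa3 lie between 1.17 and 1.39.

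A larger share of injured than of sham microglia held these 4 genes. In cells thinned to 2000 UMIs, the share with a Lgals3 UMI was 0.61%, 11.9%, 0.57% and 5.05%, and in endothelial cells it was 0%, 7.14%, 0% and 2.61%. The intervals of microglia (10.3 to 13.6%) and endothelial cells (2.36 to 15.9%) overlap in the injured wild-type library. Unthinned, the Lgals3 shares of microglia were 2.63%, 27%, 1.65% and 12.9%. Those of Lgals1 were 2.77%, 20.8%, 3.12% and 8.23%, those of Anxa2 2.49%, 17%, 1.21% and 9.15%, and those of Anxa5 26.2%, 50.4%, 23.4% and 44.8%. For all 4 genes each injured library lay above either sham library. The thinned Lgals1 share was 1.37%, 7.89%, 0.76% and 2.47%, that of Anxa2 1.07%, 5.1%, 0.19% and 2.52%, and that of Anxa5 6.1%, 20.6%, 5.89% and 15.3%. Anxa3 was found in 62.2%, 67.7%, 63.8% and 70.6%. The tenth of cells with the most Lgals3 held 82.7% of its UMIs in the injured wild-type microglia and 96.7% in the injured knockout-labelled ones, where 388 of 1775 UMIs lay in 1 cell.

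**Figure D4:**
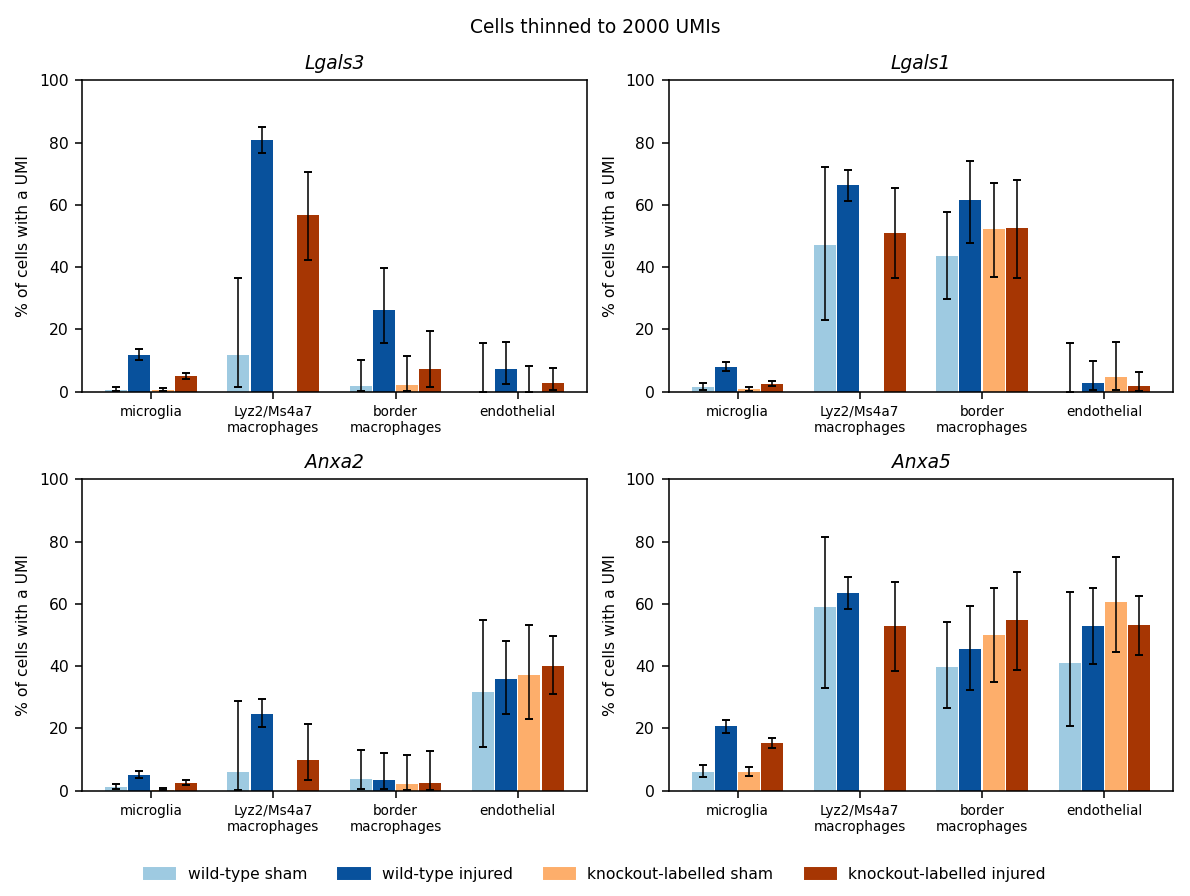
Share of cells with at least 1 UMI of Lgals3, Lgals1, Anxa2 or Anxa5 after thinning each cell to 2000 UMIs, by class and library, with exact Clopper-Pearson 95% intervals; the knockout-labelled sham Lyz2/Ms4a7 macrophages, with 5 cells, are left out. In microglia the Lgals3 share is 11.9% and 5.05% after injury against 0.61% and 0.57% in the sham libraries.

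Lyz2 moved with these genes in the microglia gate, at 434, 1778, 317 and 1185 CPM. The monocyte markers summed to 44.7, 36.3, 9.18 and 28.8 CPM, higher after injury in the knockout-labelled pair and lower in wild type. In the injured Lyz2/Ms4a7 macrophages themselves these markers summed to 314 CPM in wild type and 251 CPM in the knockout-labelled library. The 6 border macrophage markers summed to 13.9, 52.1, 10.9 and 11.7 CPM, with Cd163 at 0 in all but the injured knockout-labelled library. The 6 microglia markers summed to 9204, 5682, 10016 and 7130 CPM, lower in both injured libraries. Over microglia with under 10 Lyz2 UMIs, which keep 740 of 1574 and 1272 of 2077 cells of the injured libraries, Lgals3 was at 1.75, 48.4, 3.95 and 24.4 CPM. Injured over sham in these cells, Lgals3 was 27.7-fold (15.2 to 56.2) higher in wild type and 6.17-fold (4.37 to 8.91) in the knockout-labelled pair. The former rests on 11 sham UMIs, since the cut left out the 3 wild-type sham cells that held 92 of 118 Lgals3 UMIs. The cut is on raw Lyz2 UMIs, so it also depends on the depth of a cell. Lgals1, at 2.86, 21.07, 3.75 and 7.57 CPM, was 7.36-fold (4.41 to 12.9) and 2.02-fold (1.34 to 3.1) higher. Anxa2, at 2.39, 8.07, 0.709 and 10.2 CPM, was 3.38-fold (1.81 to 6.65) and 14.4-fold (6.72 to 36.8) higher, from 15 and 7 sham UMIs. Anxa5, at 31.8, 64.8, 30.3 and 72.1 CPM, was 2.04-fold (1.69 to 2.45) and 2.38-fold (2.07 to 2.74) higher. All 4 were higher in both labels, while on the log2(CPM + 10) scale, which shrinks the ratios of low levels, Lgals1 in the knockout-labelled pair (0.35), Anxa2 in both (0.54 and 0.92) and Anxa5 in wild type (0.84) fell short of a call. The part of other cells or doublets in the difference was not tested.

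Among injured microglia thinned to equal depth, cells with Lgals3 held Lgals1, Anxa2 and Anxa5 more often. In the wild-type library, 23.5% (17.5 to 30.4) of 179 cells with Lgals3 had Lgals1, against 5.79% (4.6 to 7.18) of 1330 cells without. For Anxa5 the shares were 38% (30.9 to 45.5) and 18.3% (16.2 to 20.5), and for Anxa2 13.4% (8.78 to 19.3) and 3.98% (3.0 to 5.18). In the knockout-labelled library 17% (10.2 to 25.8) of 100 cells with Lgals3 had Lgals1 against 1.7% (1.17 to 2.39) of 1882 without. For Lgals9 the shares were 20.7% (15 to 27.3) and 26.7% (24.3 to 29.2) in the wild-type library, and 20% (12.7 to 29.2) and 29.2% (27.2 to 31.3) in the other, with overlapping intervals. Of knockout-labelled cells with Lgals3, Anxa5 was in 37% (27.6 to 47.2) against 14.2% (12.6 to 15.8) of those without, and Anxa2 in 8% (3.52 to 15.2) against 2.23% (1.61 to 3.0). Lgals8 was in 3% (0.623 to 8.52) against 9.78% (8.47 to 11.2) of knockout-labelled cells, and in 8.38% against 7.44% in wild type. For Anxa3 the shares were 62.6% and 68.3% in wild type and 68% and 70.7% in the knockout-labelled library, with overlapping intervals. For Anxa4 they were 7.82% and 4.51% in wild type and 7% and 4.52% in the knockout-labelled library, also with overlapping intervals. Anxa1 was in 4 of 179 wild-type cells with Lgals3 and 1 of 1330 without, and in 0 of 100 and 1 of 1882 knockout-labelled cells. These are shares over cells of 1 mouse each.

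By unsupervised cluster, gated microglia had the highest Lgals3 (687 CPM), Lgals1 (385 CPM), Anxa2 (142 CPM) and Anxa5 (353 CPM) in the 76 cells of a cluster led by Spp1, Gpnmb and Fabp5. Of these cells, 69 came from the injured wild-type library, 7 from the injured knockout-labelled one and 0 from either sham library. Besides these 76 gated microglia, the cluster held 26 Lyz2/Ms4a7 macrophages, 3 border macrophages and 405 ungated cells. Next came the 705 gated microglia of a cluster led by Lpl, Cxcl2 and Ch25h, with 171 CPM of Lgals3, 86.6 of Lgals1, 44.9 of Anxa2 and 201 of Anxa5. The clusters that held most sham microglia, led by Slc5a3 and Hbegf or by Nrgn and Snap25, had 3.35 and 3.31 CPM of Lgals3. Anxa3 stayed between 325 and 696 CPM over the 10 clusters. Clusters were built from variable genes picked after the galectins and annexins described here were left out. The levels by cluster are a description with no test. Cells outside the gates with both microglia markers and Ms4a7 were at 977 CPM of Lgals3, 489 of Lgals1, 133 of Anxa2 and 399 of Anxa5 in the injured wild-type library (646 cells), and 715, 233, 76.8 and 346 CPM in the injured knockout-labelled one (132 cells).

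**Figure D5:**
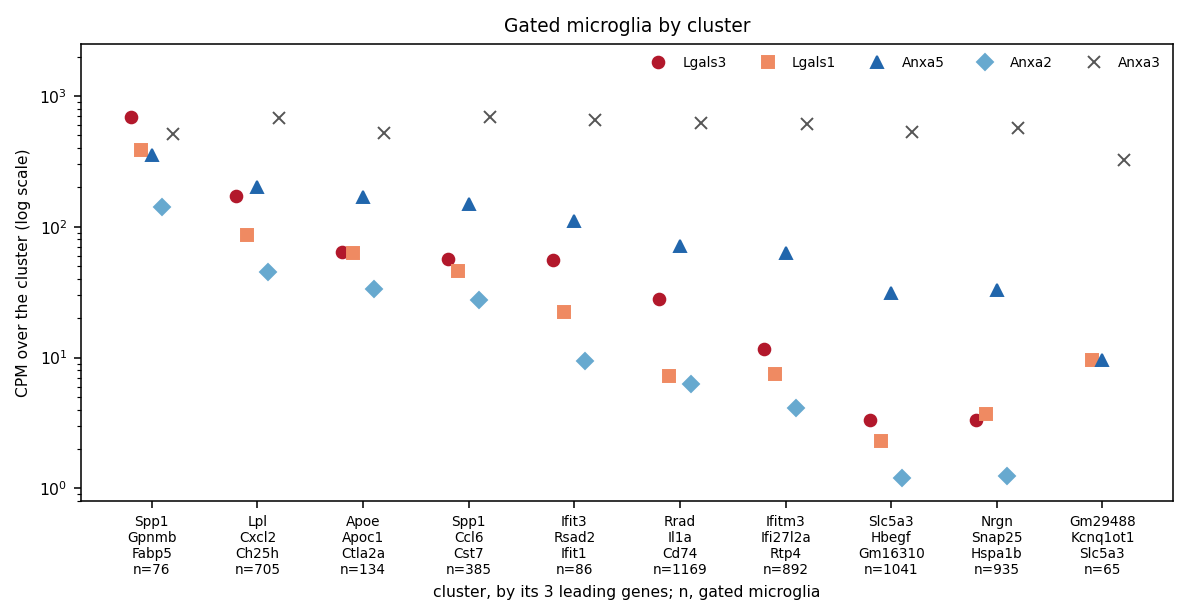
Level of 5 genes (CPM, log axis) in gated microglia by cluster, named by its 3 leading genes and ordered by Lgals3; n is the number of cells, and levels of 0 are not drawn. Lgals3, Lgals1, Anxa2 and Anxa5 peak in the cluster led by Spp1, Gpnmb and Fabp5 and Anxa3 stays between 325 and 696 CPM.

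Between the injured microglia of the 2 labels, Lgals1 was lower in the knockout-labelled library, at 0.394 of the wild-type level (0.358 to 0.433). It was the 1 gene of the 8 that passed the filter called at least 2-fold lower, where 0.278% of 5393 genes (15) were lower and 0 were higher. Lgals3 was at 0.646 (0.606 to 0.689), Anxa2 at 0.576 (0.506 to 0.654), Anxa5 at 0.778 (0.734 to 0.825) and Anxa4 at 0.853 (0.756 to 0.963) of the wild-type level. Lgals9 and Anxa3 were at 1.11 (1.06 to 1.17) and 1.12 (1.09 to 1.15), and Lgals8 at 1.07 (0.966 to 1.2). On the log2(CPM + 10) scale Lgals1 was at -1.12, with a range of -2.13 (Ms4a7 cells added) to -0.82 over the alternatives, and it missed the call with stricter gates (-0.85) and over microglia with under 10 Lyz2 UMIs (-0.82). In the latter cells the plain ratios were 0.359 (0.26 to 0.496) for Lgals1, 0.503 (0.415 to 0.61) for Lgals3, 1.26 (0.852 to 1.91) for Anxa2 and 1.11 (0.968 to 1.28) for Anxa5. The thinned shares of Lgals3 (11.9% against 5.05%) and Lgals1 (7.89% against 2.47%) fall in the same order. The gated microglia of the Spp1, Gpnmb and Fabp5 cluster, 69 wild-type and 7 knockout-labelled cells, moved with these levels. Their part in them was not tested. In sham microglia, of the 4 genes that passed the filter, none was called (0.0648% of genes were higher and 0.324% lower).

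The log2 effect of injury in microglia differed between labels by more than the counting error of UMIs for 6 genes. That error takes no account of UMIs that lie together in few cells, as those of Lgals3 did in both sham libraries. Knockout-labelled minus wild type was -1.06 (-1.64 to -0.48) for Lgals1, -0.73 (-1.08 to -0.38) for Lgals3, -0.65 (-1.01 to -0.29) for Anxa4, -0.28 (-0.52 to -0.04) for Anxa5, 0.35 (0.12 to 0.57) for Lgals8 and 1.11 (0.24 to 1.98) for Anxa2. The Anxa2 difference is set by the low sham level of 1.31 CPM in the knockout-labelled library. Lgals9 (-0.08, -0.21 to 0.06) and Anxa3 (0.01, -0.06 to 0.08) were within counting error. Over microglia with under 10 Lyz2 UMIs the Anxa5 difference went the other way, with ratios of 2.04 in wild type and 2.38 in the knockout-labelled pair. Those of Lgals1, Lgals3, Lgals8, Anxa2 and Anxa4 kept their direction there. With 1 mouse a group, the difference between mice cannot be told apart from that between labels.

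In injured Lyz2/Ms4a7 macrophages, the 57 knockout-labelled cells had less Anxa2 than the 370 wild-type cells, at 0.445 (0.32 to 0.603) of their level. It was the 1 gene of the 9 called lower, where 1.08% of 5347 genes were lower and 2.24% higher. The Anxa2 call was lost with stricter gates (-0.96) and cluster-defined classes (-0.30), and median-of-ratios scaling moved the share of higher among called genes from 67.4% to 50%. Lgals3 was at 0.64 (0.596 to 0.686) and Lgals1 at 0.702 (0.619 to 0.794) of the wild-type level, and Anxa5 at 0.936 (0.822 to 1.06). The thinned share of cells with Lgals3 was 81% in wild type and 56.9% in the knockout-labelled library. The cells were deeper in wild type, with a median of 14878 UMIs against 8443, and Lyz2 and Ms4a7 together reached 45241 CPM against 29281 CPM.

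In border macrophages, Lgals3 was 49.7-fold (21.1 to 154) higher in the injured than in the sham wild-type library and 2.5-fold (1.01 to 6.99) higher in the knockout-labelled pair. By fold alone it was the 1 gene of 7 called higher in wild type (2.16% of genes higher, 4.71% lower), 0 of 7 were called in the knockout-labelled pair (2.41% and 1.54%), and between injured libraries it was the 1 called lower in the knockout-labelled one (1.66% lower, 1.78% higher). Of the 289 UMIs in injured wild-type cells, 241 lay in 5 cells, all with at least 10 Lyz2 UMIs, and Lyz2 and Ms4a7 together were at 8652, 14023, 8605 and 7390 CPM. It was the 1 gene of the 9 called in the edgeR model over both labels (4.29 ± 0.59, adjusted p = 0.000352), where 0.949% of 5900 genes were higher and 0.203% lower. That SE rests on a spread pooled over genes and does not cover the gap between the 49.7-fold and 2.5-fold ratios. The sham levels rest on 5 UMIs in wild type and 7 UMIs, all in 1 cell, in the knockout-labelled library. The call was lost under DESeq2 (3.60, adjusted p = 0.9999) and with cluster-defined classes (2.37, adjusted p = 0.653). Of the others, Lgals1, Lgals8, Lgals9, Anxa3, Anxa4 and Anxa5 did not pass, and Anxa1 and Anxa2 were filtered out. For Lgals1 the ratio was 1.48 (1.27 to 1.73) in wild type, while the knockout-labelled ratio was 1.01 (0.829 to 1.23).

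In endothelial cells no gene of the 9 passed the injury test, where 0.837% of 6810 genes were higher and 1.12% lower. Of the 7 that could be tested, 0 had an unadjusted p under 0.05, and DESeq2 called none of the 4 it gave an adjusted p for. The differences were 0.02 ± 0.22 for Anxa2, 0.04 ± 0.20 for Anxa5 and 0.03 ± 0.19 for Anxa3. By fold alone Lgals1 and Lgals3 were the 2 of 8 called higher in wild type (5.27% of genes higher, 2.81% lower) and the 2 called lower in the knockout-labelled injured library than in the wild-type one (1.38% lower, 0.638% higher). The cell with 1596 Lyz2 UMIs held 43 of the 62 Lgals1 UMIs and 205 of the 241 Lgals3 UMIs of the injured wild-type library. In the knockout-labelled pair 0 of 7 were called (1.13% and 1.9%). Injured over sham, the Anxa2 ratio of wild type was 1.02 (0.716 to 1.47), and that of the knockout-labelled pair was 0.97 (0.785 to 1.2).

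Related genes were read from 4 lists, beside 23.6% of all genes higher and 21.1% lower in injured microglia. Of the 12 other galectins and annexins, 6 were tested and 1 was called higher in injured microglia, Lgals3bp (3.33 ± 0.16, edgeR adjusted p = 6.87e-96), which encodes a glycoprotein bound by galectin-3. Its levels were 79.9, 589, 74.5 and 606 CPM, with both injured libraries above both sham libraries. Lgals3bp was also called in border macrophages (1.67 ± 0.27, adjusted p = 0.00174). Of the 6 S100 partners and kin, 3 were higher in injured microglia, led by S100a4 (1.99 ± 0.22), S100a1 (1.57 ± 0.15) and S100a13 (0.62 ± 0.14). S100a10, the partner of annexin A2, was not called there, at 16.2, 10.2, 12.9 and 7.65 CPM. Among 14 receptors and binding partners, of which 12 were tested, 5 were higher and 2 lower, with Cd44 (2.16 ± 0.22), Lamp1 (1.11 ± 0.14) and Trem2 (0.91 ± 0.13) the largest. Of 12 membrane and lysosome repair genes 8 were tested and 4 were higher, led by Capn1 (1.36 ± 0.25), Ahnak (1.16 ± 0.30) and Pdcd6 (0.66 ± 0.15). The median log2 differences of these lists were 0.09, 0.41, 0.26 and 0.39, against -0.02 over all genes.

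Across classes, all 6 S100 genes were higher in Lyz2/Ms4a7 macrophages than in microglia, where 12.9% of all genes were higher, with S100a11 (3.43 ± 0.32), S100a6 (3.36 ± 0.52) and S100a4 (3.06 ± 0.73) the largest. Anxa11 was higher than in microglia in Lyz2/Ms4a7 macrophages (1.34 ± 0.24), border macrophages (1.28 ± 0.24) and endothelial cells (2.26 ± 0.20). Fpr1, a formyl peptide receptor, was higher in Lyz2/Ms4a7 (6.44 ± 1.36) and border macrophages (6.91 ± 1.25). Havcr2, which encodes the galectin-9 receptor TIM-3, was lower than in microglia in border macrophages (-2.32 ± 0.40) and endothelial cells (-5.96 ± 0.64). Ahnak, a large scaffold protein that binds the annexin A2 and S100A10 complex, was higher than in microglia in Lyz2/Ms4a7 macrophages (5.42 ± 0.33), border macrophages (5.17 ± 0.31) and endothelial cells (6.54 ± 0.32).

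Genes whose level followed each of the 9 most closely were found by Pearson correlation of log2(CPM + 10) over 15 sums of a class in a library, among 3208 genes with a mean of at least 50 CPM. The sums share libraries, depth and class, and the values are descriptions. For Lgals3 the closest were Apoc2 (r = 0.94), Aprt (0.93) and Gpnmb (0.91). For Lgals1 they were Wfdc17 (0.96), Pla2g7 (0.96) and Rap2b (0.95), and for Anxa2 Fxyd5 (0.96), Vim (0.95) and Prdx2 (0.95). Anxa3 followed Sparc (0.96), Adgrg1 (0.94) and Rasgrp3 (0.94), of which Sparc is a marker of the microglia gate. Anxa5 followed Hint1 (0.96), Ybx1 (0.95) and Sash1 (0.95), Anxa4 Akr1a1 (0.95), Mvb12a (0.93) and Lipa (0.93), and Anxa1 Acp5 (0.89), Degs1 (0.84) and Msrb1 (0.83). Lgals8 followed Kpna4 (0.90), Uvrag (0.88) and Mgat1 (0.84), and Lgals9 Sdf4 (0.92), Ndufs8 (0.88) and Mtch1 (0.87). Among the 9 themselves, the highest r over the same sums were 0.73 between Anxa4 and Anxa5, 0.72 between Lgals9 and Anxa3, 0.72 between Anxa2 and Anxa5 and 0.70 between Lgals3 and Anxa1, and the lowest was -0.80 between Lgals1 and Anxa3.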

How the data were processed

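The authors deposited raw counts of UMIs for each gene in each barcode. Cell Ranger 6.0.1 was named by both the file headers and the submitters' processing notes, the latter with the mm10 build. The chemistry counts 3′ ends, so gene lengths do not enter. A cell was kept if it held 500 or more genes and 1000 or more UMIs, of which mitochondrial ones made up no more than 10%, and the cells with the highest Scrublet scores were left out at 0.8% per 1000 barcodes. A class needed at least 3 of its 6 markers (microglia, border macrophages and endothelial cells, with no Ms4a7 in microglia) or Ms4a7 with Lyz2 and at most 2 microglia markers. Library totals ran from 15222380 to 40336067 UMIs.

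Counts were summed per library and class. Class contrasts used the edgeR 4.0.16 quasi-likelihood test with the library as a block, over 15 sums of at least 10 cells (the 6 knockout-labelled sham Lyz2/Ms4a7 macrophages were too few), TMM scaling, filterByExpr and Benjamini-Hochberg adjustment over all genes tested; a call is an adjusted p under 0.05. Injury was tested with the genotype label as a term, in classes with at least 20 cells in each library. The 4 groups have 1 library each, so comparisons of single libraries carry no p. A gene was called there at 2-fold on the log2(CPM + 10) scale if it had at least 20 CPM in 1 library and 50 UMIs over the 4 libraries. Intervals are exact Poisson, conditional binomial or Clopper-Pearson; the difference of effects uses a normal interval on log counts. On simulated counts the class test recovered 73.7% of 4-fold and 21.8% of 2-fold changes (8219 genes), and the injury test in microglia 92% and 28% (12818 genes). The simulation had 200 changed genes, the same baseline profile for all sums and a fixed spread not taken from the data. Its shares therefore do not give the power of the tests on the real counts. All 9 genes were taken into every comparison before filtering, though not each is named in the text for all of them. From each list up to 3 called genes with the largest difference are named. The genes, lists and tests were chosen with earlier results of these data known. DESeq2 1.42.0, median-of-ratios scaling, stricter gates, cluster classes (scanpy 1.11.5) and other settings served as alternatives; the restriction to microglia with under 10 Lyz2 UMIs, the removal of shared barcodes and the addition of cells with Ms4a7 were chosen after seeing the data.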

Additional observations from a re-analysis of the deposited data

Results flagged for a closer look

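Lgals1 in endothelial cells moved in opposite directions in the 2 labels, injured over sham. The wild-type ratio was 18.6 (3.22 to 748). The knockout-labelled ratio was 0.351 (0.13 to 0.868). The difference between labels was not tested. The former rests on 1 UMI in the sham library, and 43 of the 62 UMIs of the injured library lay in 1 cell with 1596 Lyz2 UMIs. The latter rests on 8 and 16 UMIs.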

How the results depend on the processing

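No paired analysis was possible because each group holds 1 library. The injury models were not refitted with a library left out, since that leaves no residual degrees of freedom. Of the single-gene values, 818 kept their direction and side of the threshold or moved by less than their interval, 14 lost a call, 27 gained one, 108 moved and 28 reversed; the causes were not tested. Of all genes, 512 were called between injured and sham wild-type microglia, against 895 with cluster classes, 902 with Ms4a7 cells added and 939 with a prior of 1 CPM. With that prior the calls rose from 233 to 389 in knockout-labelled microglia, from 24 to 37 between sham microglia, and from 178 to 397 between injured Lyz2/Ms4a7 macrophages, where stricter gates gave 282, thinning 875 and equal weights 341. Between injured microglia, 15 calls became 53 with cluster classes and 73 with Ms4a7 cells added. The injury test called 5748 genes in microglia (2730 with DESeq2), 68 in border macrophages (155 without a filter, 9 with DESeq2, 0 with stricter gates, 1 with cluster classes) and 133 in endothelial cells (53 with median-of-ratios scaling, 15 with DESeq2, 85 with cluster classes). Lyz2/Ms4a7 against border macrophages gave 860 calls, 1310 with cluster classes and 230 to 749 with a library left out. Against microglia, leaving a library out gave 1004 to 1962 calls for Lyz2/Ms4a7 macrophages (2253 with all), 1342 to 1563 for border macrophages (1961) and 4142 to 4895 for endothelial cells (5126).

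Anxa1 in injured microglia reversed from a call to 1.31 without shared barcodes (adjusted p = 0.0306) and 0.73 with Ms4a7 cells added. The other reversed log2 differences were not called with all settings as reported, and 1 was called after reversal, Lgals3 in border macrophages with cluster classes (adjusted p = 0.029). Border macrophages minus microglia reversed for Lgals3 with DESeq2 (-0.067), stricter gates (-0.50), cluster classes (-1.75), Ms4a7 cells added (-0.73) and a library left out (-0.60 to 0.66), for Anxa1 with cluster classes (-1.05), no doublet removal (-0.038), Ms4a7 cells added (-0.19) and a library left out (-0.31 to 1.95), and for Anxa2 with cluster classes (-1.07) and Ms4a7 cells added (-0.21). Endothelial cells minus microglia reversed for Lgals1 with cluster classes (-1.5), Ms4a7 cells added (-0.88) and a library left out (-0.15 to 0.89). Lyz2/Ms4a7 macrophages minus microglia reversed for Lgals8 with stricter gates (-0.11), Ms4a7 cells added (-0.014) and a library left out (-0.45 to 0.29). Lyz2/Ms4a7 minus border macrophages reversed for Lgals9 with stricter gates (-0.083), no doublet removal (-0.0197) and a library left out (-0.18 to 0.20), for Lgals8 with a minimum of 30 cells (0.049) and a library left out (-0.69 to 0.039), and for Anxa3 with cluster classes (0.27). Injury minus sham reversed for Lgals1 in endothelial cells with stricter gates (-0.24) and for Lgals8 in border macrophages with no doublet removal (-0.0228).

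The sham Lyz2/Ms4a7 macrophages numbered 20 and 6 cells, so their levels rest on few UMIs, and no fold between injured and sham libraries was computed for them.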
